A study of Mus musculus with 6 samples.

Results

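Kv2 and Kv4 potassium channels with their partner subunits were followed through the ribosome-bound RNA of parvalbumin neurons, and 9 genes were described: Kcnb2, Kcnd2, Kcnd3, Kcnip1, Kcnip2, Kcnip3, Kcnip4, Dpp6 and Dpp10. Their rule is a list of gene symbols and uses no measured value, but it was set with earlier results of these data known. All 9 symbols were found among the 23306 rows of the count table, and all 9 were among the 12449 genes tested. The libraries came from the frontal cortex of male C57BL6 mice, and the labels give no age. RNA bound to ribosomes was pulled down from PV-Cre::RiboTag mice, in which Cre driven by the parvalbumin gene switches on a tagged copy of the ribosomal protein RPL22. One genotype was an Fxr1 conditional knockout made with PV-Cre, and the other was wildtype for Fxr1. Each genotype has 3 libraries, 6 in all, and 4 could be tied to a column of the table: replicates 2 and 3 of wild type with replicates 1 and 3 of the knockout. The labels do not state that libraries are separate mice. The p-values below set the genotype difference against the spread between libraries, which may thus be partly technical.

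Voltage-gated potassium channels are tetramers of pore-forming subunits. Kv2 channels, such as that of Kcnb2, are delayed rectifiers that open slowly and help to repolarise the membrane during repeated firing, and they sit in clusters on the soma and proximal dendrites. Kv4 channels (Kcnd1, Kcnd2 and Kcnd3) carry the fast-inactivating A-type current, which delays the first spike and damps signals that spread back into dendrites. Kv4 pores assemble with cytosolic calcium-binding KChIP proteins (Kcnip1 to Kcnip4) and with single-pass membrane proteins related to dipeptidyl peptidases, DPP6 and DPP10, that have no peptidase activity. Both partners raise the number of channels at the surface and set their gating. Fxr1, the deleted gene, encodes a relative of the fragile X protein FMRP that binds RNA.

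The coding sequences of these families are alike but not interchangeable, which matters for counts of short reads. The first 90 coding bases of Kcnd2 (mm10, chr6:21216299-21216388, plus strand) and Kcnd3 (chr3:105458816-105458905, plus strand) are shown because they encode the amino terminus that KChIPs hold. Capitals mark the 24 positions at which they differ.
Kcnd2: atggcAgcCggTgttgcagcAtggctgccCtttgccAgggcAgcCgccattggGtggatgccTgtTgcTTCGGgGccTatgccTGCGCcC
Kcnd3: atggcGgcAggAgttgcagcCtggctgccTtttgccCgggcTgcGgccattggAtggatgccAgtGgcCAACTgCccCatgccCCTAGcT
Over the coding sequences, of 1890 and 1965 bases, the aligned bases were 73.9% identical. Read in the sense direction, no stretch of 50 bases in any annotated transcript of either gene occurred in a transcript of another gene; antisense overlaps are given with the gene positions.

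The last 90 coding bases of the KChIP genes, without the stop codon, are shown because they encode part of the carboxy-terminal core that this family shares. Each runs over 2 exons on the minus strand of mm10. These are chr11:33633148-33633192 and chr11:33630554-33630598 for Kcnip1, chr19:45794001-45794045 and chr19:45793673-45793717 for Kcnip2, chr2:127459330-127459374 and chr2:127458344-127458388 for Kcnip3, and chr5:48396005-48396049 and chr5:48390912-48390956 for Kcnip4. Capitals mark the 38 positions at which the 4 genes are not all the same.
Kcnip1: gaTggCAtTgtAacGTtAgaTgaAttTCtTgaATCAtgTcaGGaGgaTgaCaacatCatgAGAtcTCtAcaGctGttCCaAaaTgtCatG
Kcnip2: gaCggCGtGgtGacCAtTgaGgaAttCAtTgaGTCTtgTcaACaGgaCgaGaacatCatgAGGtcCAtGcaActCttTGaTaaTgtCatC
Kcnip3: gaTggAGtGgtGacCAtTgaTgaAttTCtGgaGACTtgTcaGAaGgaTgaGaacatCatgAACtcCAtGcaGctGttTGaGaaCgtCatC
Kcnip4: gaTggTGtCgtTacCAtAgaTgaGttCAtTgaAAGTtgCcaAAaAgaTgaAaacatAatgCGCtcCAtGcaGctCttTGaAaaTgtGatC
In these 90 bases the pairs were 68.9% (Kcnip1 and Kcnip4) to 82.2% (Kcnip2 and Kcnip3) identical. Over the coding sequences, the aligned bases of the pairs were 70.9% (Kcnip2 and Kcnip4) to 73% (Kcnip1 and Kcnip4) identical. No stretch of 50 bases was shared in the sense direction between any of the 9 genes. Of the 9, Dpp10 had the highest share of such stretches that also occurred, in the same direction, in a transcript outside the group, 2.63%, followed by Dpp6 at 0.43%, Kcnip3 at 0.113% and Kcnb2 at 0.06%, while Kcnd2, Kcnd3, Kcnip1, Kcnip2 and Kcnip4 had none in that direction.

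The 9 genes lie on 7 chromosomes. Kcnb2 occupies 436.5 kb of chromosome 1 (15287254 to 15723750) and Dpp10 724.1 kb of the same chromosome (123321471 to 124045559). Kcnd2 is on chromosome 6 (21215503 to 21729805), Kcnd3 on chromosome 3 (105452330 to 105674002), Kcnip1 on chromosome 11 (33629339 to 33993152), Kcnip2 on chromosome 19 (45791839 to 45816061) and Kcnip3 on chromosome 2 (127456498 to 127522094). Chromosome 5 holds both Dpp6 (26817203 to 27727505) and Kcnip4, which spans 1135.4 kb (48389502 to 49524907). Exons of Kcnip4 share 168 bases, 4.63% of its exon length, with the gene 5730480H06Rik on the opposite strand, and whether reads were counted by strand is not given in the sources used here. The other genes that the annotation places inside these 9 shared no exon base with them, apart from Kcnd3os, which shares 165 bases with Kcnd3, and Gm20700, which shares 99 with Kcnip4. Neither of these was listed in the count table.

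The 4 libraries held 9696126 to 10301280 counts. Fxr1, which checks the labels, stood at 98.4 and 101 CPM (counts scaled by the library total) in the wild type libraries against 17.8 and 18.7 CPM in the knockouts. Its log2 fold change was −2.45 (SE 0.10; adjusted p = 1.77e-15, quasi-likelihood test of edgeR, Benjamini-Hochberg). The 10 parvalbumin neuron markers summed to between 11215 and 11692 CPM and 8 excitatory neuron markers to between 1063 and 1157 CPM. Sums were 609 to 709.7 CPM for 6 astrocyte markers, 275 to 396 CPM for 8 oligodendrocyte markers and 198 to 248 CPM for 8 markers of other interneurons. These sums are over unlike genes without correction for length, so they do not measure the share of each cell type. Gad1 averaged 4235 CPM, Camk2a 698, Slc1a2 472 and Pvalb 254 CPM. Per kb of annotated exons, Pvalb stood at 244 CPM and Camk2a at 93.5. No excitatory, astrocyte or oligodendrocyte marker was at 0 in any library. RNA of other cells was thus present beside that of parvalbumin neurons, and its part in the levels of the 9 genes was not tested. In such bulk material, fewer cells of a type and less RNA per cell cannot be told apart. Knockout replicate 1 stood apart in ribosomal RNA precursor, Rn45s, with 0.711% of all counts where the rest had 0.283% to 0.315%, and knockout replicate 3 held the highest oligodendrocyte sum.

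Of the pore-forming members, Kcnd2 is the gene of Kv4.2. It measured 96.3 CPM in wild type replicate 2, 84.4 in wild type replicate 3, 93.6 in knockout replicate 1 and 92.9 in knockout replicate 3. Both knockout libraries fell between the wild type libraries. Kcnd3, the gene of Kv4.3, measured 23.7 CPM in wild type replicate 2, 22.7 in wild type replicate 3, 19.9 in knockout replicate 1 and 21 in knockout replicate 3. Both knockout libraries lay below both wild type libraries, and the exact 95% Poisson intervals of the closest pair, which cover counting error only, overlapped: 19.9 to 25.8 CPM for wild type replicate 3 and 18.3 to 24 CPM for knockout replicate 3. Kcnb2, the gene of Kv2.2, was the steadiest of the 9, at 18.5 and 17.7 CPM in the wild type libraries (replicates 2 and 3) against 18.6 and 18.2 CPM in the knockouts (replicates 1 and 3, here and below). Its spread between libraries of one genotype was 2.47% of the mean, below the 7.37% that counting alone gives.

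Among the KChIP members, Kcnip2, the gene of KChIP2, measured 264 and 243 CPM in the wild type libraries against 259.6 and 250.5 CPM in the knockouts, with the genotypes interleaved. Kcnip1, the gene of KChIP1, measured 77.6 CPM in wild type replicate 2 and 87 in wild type replicate 3, and 71.3 in knockout replicate 1 and 90.9 in knockout replicate 3. It was thus high in 1 library of each genotype and low in the other.

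Kcnip4, the gene of KChIP4, some isoforms of which slow the inactivation of Kv4 channels, measured 52.2 and 48.8 CPM in the wild type libraries against 46.2 and 42.1 CPM in the knockouts. Both knockout libraries lay below both wild type libraries. Kcnip3 encodes KChIP3, also known as calsenilin and as the DNA-binding protein DREAM, and measured 14.3 and 12.6 CPM in the wild type libraries against 12 and 12.5 CPM in the knockouts. Its genotypes lay close without overlapping, with 139 and 130 counts against 122 and 129.

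Of the DPP members, Dpp6 measured 698 and 654 CPM in the wild type libraries against 652 and 614 CPM in the knockouts, so that the highest knockout library lay just below the lowest wild type library. Dpp10 measured 158 and 141 CPM in the wild type libraries against 135 and 142 CPM in the knockouts. Its genotypes overlapped by library totals.

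**Figure D1:**
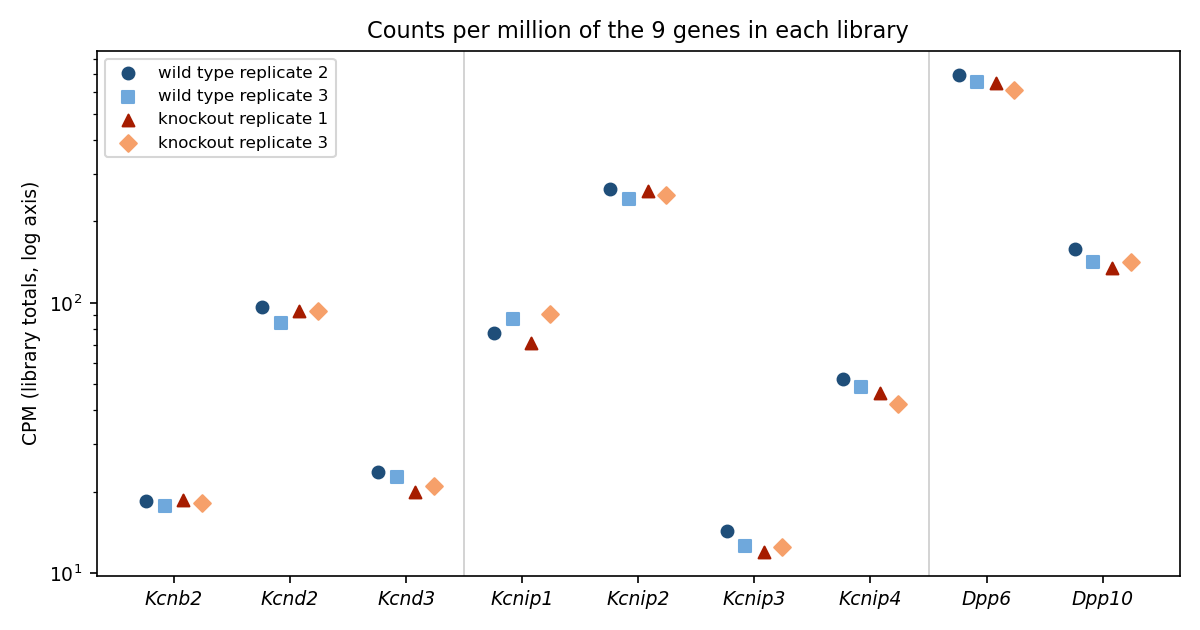
CPM by library totals (log axis) of the 9 genes in the 4 libraries, one point per library, with grey lines between pore, KChIP and DPP genes. CPM is not corrected for gene length, so points are to be compared within a gene: the 4 libraries of Dpp6 lie between 614 and 698 CPM and those of Kcnip3 between 12 and 14.3 CPM.

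Levels of the 9 genes were compared with each other only after division by gene length (CPM per kb of the union of annotated exons). On this scale Kcnip2 stood first at 73.1 ± 2.62 CPM per kb (mean and SD over the 4 libraries), followed by Dpp6 at 53 ± 2.78, Kcnd2 at 17.8 ± 1.01, Kcnip1 at 13.2 ± 1.43, Kcnip4 at 13 ± 1.18, Dpp10 at 9.11 ± 0.629, Kcnip3 at 3.63 ± 0.286, Kcnd3 at 2.28 ± 0.18 and Kcnb2 at 1.2 ± 0.0269. Neighbours in this order had separate ranges over the libraries, except Kcnip1 (11.5 to 14.7) and Kcnip4 (11.6 to 14.4), whose ranges overlapped. For comparison, the Kv3 channel gene Kcnc1, typical of fast-spiking cells, stood at 181 ± 10.6 CPM per kb and Camk2a, of excitatory neurons, at 93.5 ± 3.79.

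The order depended on the length used. The union of Dpp6 exons is 12.35 kb, but its longest transcript is 4.72 kb, and per kb of the longest transcript Dpp6 came first at 139 ± 7.26, above Kcnip2 at 81.6 ± 2.92. Kcnip1 (19.9 ± 2.17) and Kcnip4 (19.8 ± 1.78) then stood above Kcnd2 (17.8 ± 1.01). The places of Dpp10, Kcnip3, Kcnd3 and Kcnb2 were the same under both lengths.

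**Figure D2:**
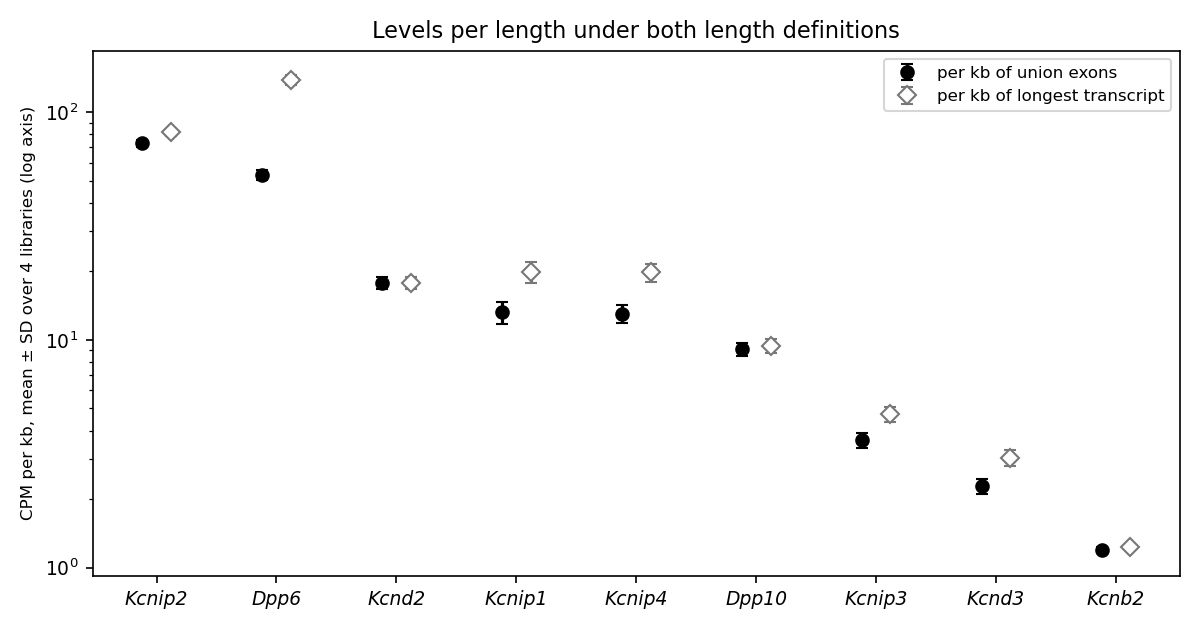
Mean CPM per kb with SD over the 4 libraries (log axis) for the 9 genes, with filled circles for the union of exons and open diamonds for the longest annotated transcript. Dpp6 moves from 53 to 139 CPM per kb and changes place with Kcnip2, while Kcnd3 and Kcnb2 stay at the low end.

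Within the Kv4, KChIP and DPP families, 1 gene held most of the length-corrected level. Among the Kv4 pore genes Kcnd2 made up 81.7 ± 1.83% (SD, n = 4), Kcnd3 10.5 ± 0.9% and Kcnd1, which is not one of the 9, 7.82 ± 1.3%. Among the KChIP genes Kcnip2 made up 71 ± 1.53%, Kcnip1 12.8 ± 1.56%, Kcnip4 12.7 ± 0.957% and Kcnip3 3.52 ± 0.199%. Dpp6 exceeded Dpp10 by 5.83 ± 0.285 times per kb of union exons and by 14.8 ± 0.722 times per kb of the longest transcript.

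The knockout comparison asked whether the ribosome-bound level of these genes differed in parvalbumin neurons without Fxr1. None of the 9 passed: 0 were higher and 0 lower at an adjusted p under 0.05 by edgeR, against 4 of all 12449 genes tested, or 0.0321% (0.0161% higher and 0.0161% lower). An unadjusted p under 0.05 was also reached by 0 of the 9, against 3.23% of all genes tested, and 0 of the 9 passed by DESeq2 (0.0161% of all genes) or limma voom (0.0241%). The log2 fold changes ran from −0.19 to 0.05 with a median of −0.09, beside a median of −0.0015 over all genes tested. The 95% intervals, each taken for 1 gene, reached at most 1.24-fold higher (Kcnb2) and 1.38-fold lower (Kcnip3).

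Kcnip4 had the smallest p of the 9, with a log2 fold change of −0.19 (SE 0.10; 95% interval −0.40 to 0.02; unadjusted p = 0.0693, adjusted p = 0.998 by edgeR). Kcnd3 had a log2 fold change of −0.18 (SE 0.13; interval −0.45 to 0.08) and Kcnip3 one of −0.13 (SE 0.16; interval −0.46 to 0.20). Dpp10 and Dpp6 had values of −0.11 (SE 0.08) and −0.09 (SE 0.07). Without wild type replicate 2, the values were −0.029 for Dpp10, −0.046 for Kcnip3 and −0.052 for Dpp6, and without knockout replicate 3 they were −0.11 for Kcnip4 and −0.038 for Dpp6. Kcnd2 and Kcnip2 had values of 0.05 (SE 0.09) and 0.01 (SE 0.07), and their intervals, −0.13 to 0.22 and −0.14 to 0.16, reach no further than 1.17-fold and 1.12-fold. Kcnb2 stood at 0.03 (SE 0.14) and Kcnip1 at −0.02 (SE 0.10). The adjusted p of all 9 was 0.998.

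Both knockout libraries lay below both wild type libraries for 5 of the 9 genes on TMM-scaled CPM (Kcnd3, Kcnip3, Kcnip4, Dpp6 and Dpp10) and above them for 0. Over all genes tested, 15.2% lay below in this way and 14.9% above, 30.1% in all. By library totals the number was 4, since Dpp10 then overlapped, against 15.4% of all genes. An exact two-sided permutation test of 2 libraries against 2 gives p = 0.33 at the lowest, so this count carries no test of its own. Log2 fold changes were below 0 for 6 of the 9 genes and for 50.4% of all genes tested. Some marker sums also separated by genotype: the parvalbumin neuron sum was 11555 and 11692 CPM in the wild type libraries against 11215 and 11256 CPM in the knockouts. The sum of 5 striatal neuron markers was 52.2 and 51.1 CPM against 62.2 and 62 CPM. Gad1 was the largest gene of the parvalbumin neuron sum, and the genes in it did not all move alike. By library totals Pvalb, Gad1, Gad2 and Erbb4 lay lower in both knockout libraries. Slc32a1, Kcnc1, Kcnc2, Syt2 and Tac1 overlapped between genotypes, and Lhx6 lay higher. The part of these markers in the lower values of the 5 genes was not tested. The excitatory, astrocyte and oligodendrocyte sums overlapped between genotypes.

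**Figure D3:**
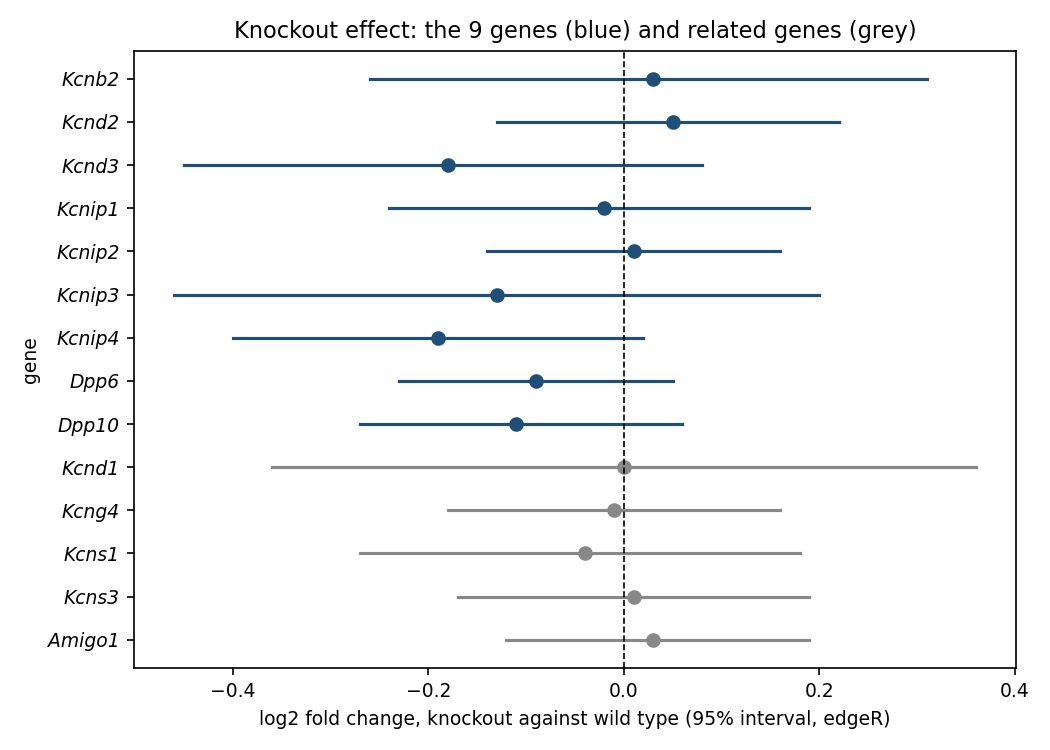
Log2 fold changes of knockout against wild type with 95% intervals from edgeR, in blue for the 9 genes and in grey for 5 related genes of the Kv2 and Kv4 system. Every interval shown includes 0; the lowest points are Kcnip4 at −0.19 and Kcnd3 at −0.18.

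Ratios between members of the same library do not depend on how libraries are scaled. Kcnd2 stood above Kcnd3 by 7.56 and 6.91 times per kb in wild type replicates 2 and 3 and by 8.77 and 8.24 times in knockout replicates 1 and 3. The knockout libraries lay above the wild type libraries, with means of 8.5 ± 0.378 against 7.23 ± 0.457 (SD, n = 2 each), and the log2 difference was 0.234. The exact two-sided permutation p was 0.33, the smallest that this design allows. Of the pair, Kcnd3 was lower in both knockout libraries than in wild type, while Kcnd2 overlapped between the genotypes.

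The partners were set against the Kv4 pores in the same way. The summed KChIP genes stood at 5.04 and 5.39 times the sum of Kcnd2 and Kcnd3 in wild type and at 5.05 and 5.04 times in knockout, which overlapped. The summed DPP genes stood at 3.14 and 3.3 times in wild type and at 3.03 and 2.9 times in knockout. These did not overlap, with a log2 difference of −0.119 and no test, since they sum over chosen genes. The level of this ratio rests on the length of Dpp6: its mean over the libraries was 3.09 per kb of union exons but 7.1 per kb of the longest transcript, where the KChIP ratio went from 5.13 to 6.05, so that the order of the partners turned. Kcnb2 measured between 0.0575 and 0.0622 times the Kv4 sum, with overlapping genotypes. The Kcnip1 share of the KChIP genes was 11.7% and 13.9% in wild type and 11.2% and 14.4% in knockout, so that the libraries of one genotype differed more than the genotype means, which were 12.8% each.

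**Figure D4:**
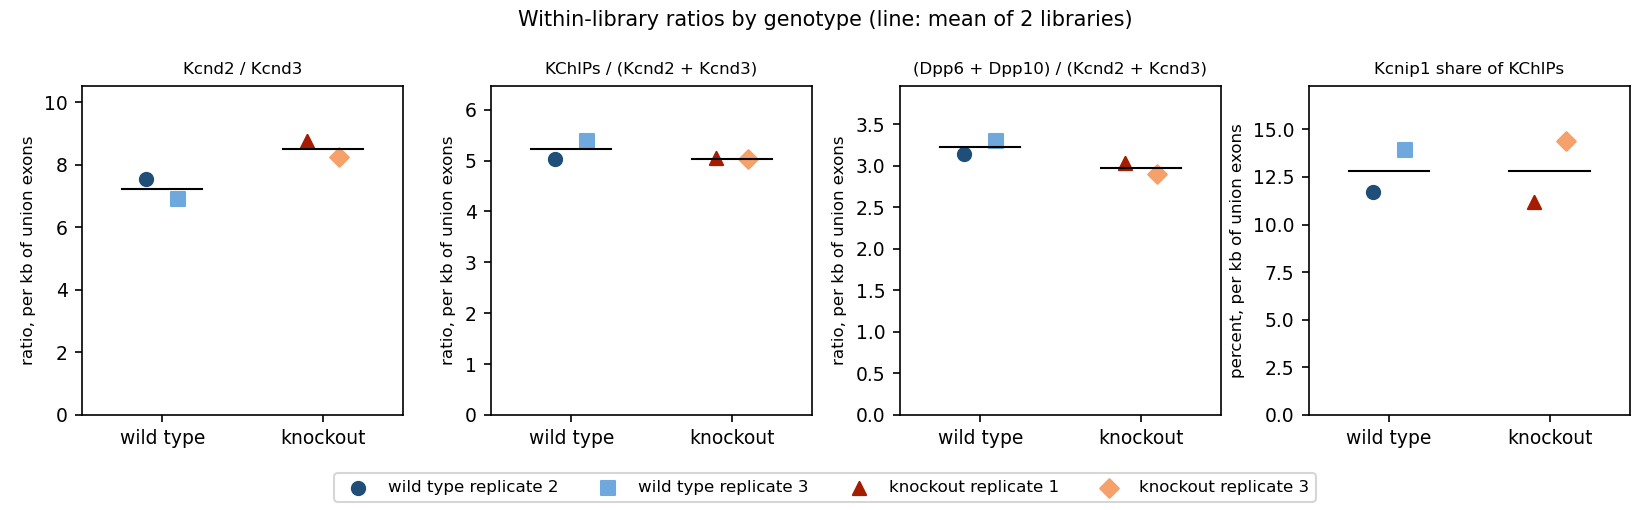
Within-library ratios per kb of union exons by genotype, one point per library, with a line at the mean of 2 libraries and each axis starting at 0. The ratio of Kcnd2 to Kcnd3 is 6.91 to 7.56 in wild type and 8.24 to 8.77 in knockout, while the KChIP ratio and the Kcnip1 share overlap.

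The other genes of the Kv2 and Kv4 system were taken from 5 lists with 28 genes, of which 26 were tested; Kcnv2, at 0 counts in all 4 libraries, and Amigo3, at a mean of 0.616 CPM, were too low. Of the 26, 0 passed in either direction by edgeR and 0 had an unadjusted p under 0.05, and 13 log2 fold changes were above 0 and 13 below. Kcnd1, the minor Kv4 pore gene, averaged 8.97 CPM in the wild type libraries and 8.99 CPM in the knockouts (95% interval −0.36 to 0.36).

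Silent subunits form no channel alone but join Kv2 pores and change their gating. Kcng4 and Kcns3 were the most abundant of them per kb of union exons, at 22.7 ± 0.791 and 22.3 ± 0.583 CPM per kb, with overlapping ranges over the libraries. Kcns1 followed at 12.5 ± 0.47, and the other silent subunit genes ranged from 0.429 (Kcng1) to 3.33 (Kcnf1), apart from Kcnv2. On this scale Kcnb2, at 1.17 to 1.23 CPM per kb, stood below most of the silent subunit genes. The ranges of Kcng3 (1.16 to 1.29) and Kcns2 (1.16 to 1.88) overlapped that of Kcnb2, and Kcng1 lay below it. This place rests on the 15.16 kb of annotated Kcnb2 exons, of which 2721 bases are coding. Without division by length Kcnb2 averaged 18.2 CPM. That was below Kcng4 (86.6), Kcns3 (70.6) and Kcns1 (34) but above the other silent subunit genes, of which Kcnf1 was highest at 16 CPM. Of the 9 silent subunit genes tested 0 passed, with log2 fold changes from −0.12 to 0.16.

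Kv2 channels also bind the adhesion protein AMIGO1 and tether the endoplasmic reticulum to the plasma membrane through VAPA and VAPB. Amigo1 stood at 35 ± 1.31 CPM per kb, Vapa at 28.5 ± 0.982 and Vapb at 31.9 ± 1.7, and 0 of the 4 tested genes of this list passed, with Vapb at a log2 fold change of 0.05 (SE 0.08) and Amigo1 at 0.03 (SE 0.08). The calcium sensor genes related to the KChIPs had log2 fold changes below 0 in 6 of 6 cases, from −0.23 (Hpcal1, SE 0.16) to −0.04, with Vsnl1 at −0.08 (SE 0.07), and 0 passed. Of 6 genes for active dipeptidyl peptidases, which DPP6 and DPP10 are named after, 0 passed. Fap had the smallest p of that list, at a log2 fold change of 0.83 (SE 0.48) on a mean of 1.26 CPM, and Dpp9 came next at 0.12 (SE 0.09).

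Genes most like in pattern were sought for the most abundant member of each role, among tested genes within 2-fold of its mean CPM, by the root mean square difference of log2 CPM deviations over the 4 libraries. For Kcnd2 these were Srek1 (0.006) and Cops5 (0.0086), for Kcnip2 Tanc2 (0.0071) and Tnks (0.0082), and for Dpp6 Camk2g (0.0104) and Ptprm (0.0123). With 4 libraries such likeness is common: 299 of 2963 candidates lay within 0.05 of Kcnd2, 376 of 1401 within 0.05 of Kcnip2 and 91 of 530 within 0.05 of Dpp6.

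The spread between libraries of one genotype exceeded counting error for 6 of the 9 genes. Kcnip1 had the widest spread within genotypes, 13.4% of the mean against 3.5% from counting alone. Its exact 95% Poisson intervals were 66.2 to 76.7 CPM in knockout replicate 1 and 85.1 to 96.9 CPM in knockout replicate 3, which do not overlap. Kcnd2 had a spread of 6.63% against 3.29% from counting, and Dpp6 one of 4.41% against 1.23%. Kcnip3, Kcnd3 and Kcnb2, the genes of lowest count, had spreads below their counting error.

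**Figure D5:**
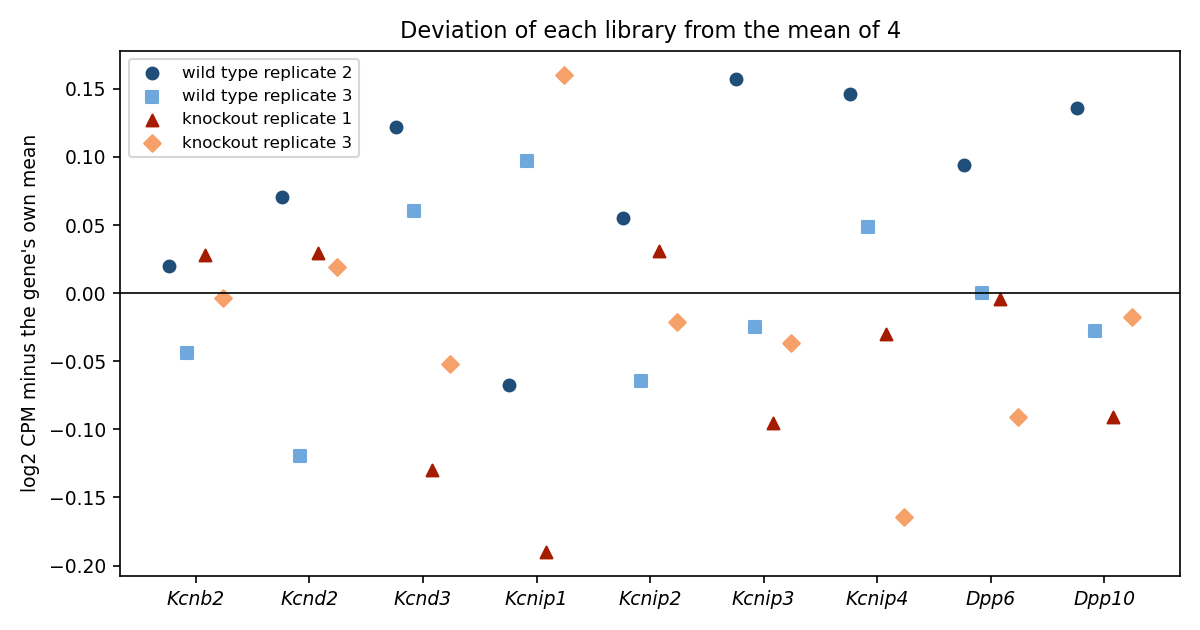
Log2 CPM (library totals) of each library minus the mean of the gene's own 4 libraries, for the 9 genes. Wild type replicate 3 and knockout replicate 3 stand highest for Kcnip1, while wild type replicate 2 stands highest for Kcnd2, Kcnd3, Kcnip2, Kcnip3, Kcnip4, Dpp6 and Dpp10.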

How the data were processed

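The deposited values are raw counts by gene symbol. The submitters' processing notes name STAR and mm10, and how reads were counted (tool, annotation, strand) is not given in the sources used here. Libraries were made with the SMARTer stranded total RNA kit, per the labels' protocols. Genotypes come from the labels, and columns were matched by sample title. Another 2 columns, named alike after wild type replicate 1, were not used, so that 2 libraries stood against 2. Replicate numbers follow accession order.

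Tests on the counts used edgeR 4.0.16 (R 4.3.3): filterByExpr (12449 genes), TMM, robust quasi-likelihood fits, Benjamini-Hochberg adjustment over all genes and a threshold of 0.05. Printed CPM use library totals unless TMM is named. Standard errors are the log2 fold change over the root of F. The fit was tested on simulated data, in which changed genes moved more than any member gene was estimated to. Its power for smaller changes was not tested. No pair of libraries agreed within sampling noise (chi-square per degree of freedom 3.02 to 6.35). The lowest value was between wild type replicate 3 and knockout replicate 3, and the highest between knockout replicates 1 and 3. Wild type replicates 2 and 3 gave 3.68.

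Lengths, coordinates and sequences are from GENCODE M21 (mm10), by symbol. The members and lists were chosen with earlier results of these data known. Named genes were the 9 members, Fxr1, the other pore and silent subunit genes, up to 2 genes of smallest p per other list, marker genes as levels and the genes most like in pattern. Kcnc1 and Camk2a serve as levels. One related gene of the lists is not reported here. Alternatives were DESeq2 1.42.0, limma 3.58.1 (voom), other scalings, filters and lengths, non-robust fits, and leaving out each library or the ribosomal and small RNA genes.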

Additional observations from a re-analysis of the deposited data

How the results depend on the processing

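None of the 9 genes passed under any of the 12 alternatives, which included each library left out in turn. Nor did any of the other genes tested in them, 26 in most, 27 with no filter and 21 with at least 5 CPM in 3 libraries. Over all genes the count of 4 became 1 with library totals, 13 with no filter on low counts and 2 by DESeq2's Wald test, and 9 to 48 with 1 library left out (9 and 25 without wild type replicates 2 and 3, 29 and 48 without knockout replicates 1 and 3). There the single remaining library is taken to vary as the opposite pair does. Log2 fold changes of Kcnd3, Kcnip3, Kcnip4, Dpp6 and Dpp10 stayed below 0 in all 12, ranging from −0.21 to −0.16, −0.21 to −0.046, −0.27 to −0.11, −0.15 to −0.038 and −0.18 to −0.029 in that order. With 1 library left out the sign turned for Kcnb2 (−0.0028 to 0.056), Kcnd2 (−0.036 to 0.14), Kcnip1 (−0.19 to 0.13), Kcnip2 (−0.037 to 0.063), Vapb (−0.048 to 0.15), Amigo1 (−0.017 to 0.079) and Dpp9 (−0.0089 to 0.26). Per kb of the longest transcript and by counts without length, Kcnd2 exceeded Kcnd3 by 5.88 and 4.23 times, the KChIP sum stood at 6.05 and 3.49 times and the DPP sum at 7.1 and 7.03 times the Kv4 sum, and Dpp6 exceeded Dpp10 by 14.8 and 4.56 times. The Kcnip1 share became 15.8% and 20.6% and the Kcnip2 share 64.8% and 64.2%. By counts without length Kcnb2 was 0.161 of the Kv4 sum. In each case the construction of the alternative, another length, sets the value. The log2 genotype difference of the Kcnip1 share was −0.0037, but 0.0037 with the longest transcript and −0.182 to 0.174 with 1 library left out. It ranged from −0.096 to 0.00025 for the KChIP ratio, from −0.053 to 0.059 for Kcnb2 against the Kv4 sum, from 0.17 to 0.298 for Kcnd2 against Kcnd3 and from −0.154 to −0.084 for the DPP ratio. The ratio of Dpp6 to Dpp10, the Kcnip2 share and the overlap by library totals were chosen after seeing the data. No paired analysis was possible because the labels give no replicate numbers. Genes of a few CPM, such as Kcng1 and Fap, have errors too large at this depth to show small changes.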

Other observations

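Replicate numbers follow accession order, so wild type replicate 3 and knockout replicate 3 are not a known pair. Of the 9 genes, only Kcnip1 was higher in replicate 3 in both genotypes. It averaged 88.9 CPM in wild type replicate 3 and knockout replicate 3 and 74.4 CPM in wild type replicate 2 and knockout replicate 1, with log2 differences of 0.17 within wild type and 0.35 within knockout. Of 12448 tested genes with counts in every library, 7.78% were at least 0.17 higher in replicate 3 in both genotypes. The neuropeptide gene Npy, chosen after its values were seen, had the same order of libraries with a wider span: 19.3 and 32.2 CPM in wild type replicates 2 and 3, and 14.8 and 39.3 CPM in knockout replicates 1 and 3. The summed markers of other interneurons, which hold Npy, stood at 229 and 246 CPM in the wild type libraries against 198 and 248 CPM in the knockouts. These markers did not share the same order of libraries. Reln, the largest, measured 146 and 142 CPM in wild type against 125 and 137 CPM in knockout. Sst measured 8.97 and 10.1 CPM against 9.25 and 10.6 CPM. The part of these markers in the Kcnip1 pattern was not tested. Kcnb2, Kcnd2, Kcnip2, Kcnip4 and Dpp6 were lower in replicate 3 in both genotypes. Their log2 differences within wild type and within knockout were, in that order, −0.06 and −0.03, −0.19 and −0.01, −0.12 and −0.05, −0.10 and −0.14, and −0.09 and −0.09. Of the 12448 genes, 21.6%, 25.9%, 18.6%, 12.3% and 14% were lower in both genotypes by at least the smaller of each pair. For Kcnd3, Kcnip3 and Dpp10 the direction differed between genotypes.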
